A study of Mus musculus with 12 samples.

Results

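The departure of the double knockdown from additivity was measured in mouse eggs that had received siRNA against both Dcp1a and Dcp2. It is the log2 change that both siRNAs gave together minus the sum of the changes that each gave alone. Equivalently, it is the double minus Dcp1a difference minus the Dcp2 minus control difference, so a value of 0 means that the single changes multiplied on the intensity scale. Of 11593 probe sets that read above log2 5 in at least 3 of 12 arrays, the 6701 whose mean was above log2 7 (intensity above 128) in all 4 groups were taken as members. At that level the lower limit of the deposited intensities, 4.9, is far below every group mean. Members with 1 gene symbol numbered 6181 and covered 4391 genes, while 226 carried several symbols and 294 had none in the platform annotation.

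The 4 groups were a double group given a mixture of Dcp1a and Dcp2 siRNA, a Dcp1a siRNA group, a Dcp2 siRNA group and a control siRNA group. Full-grown germinal-vesicle oocytes of CF1 mice were microinjected. They were kept immature with milrinone over 20 h, then left to mature during 18 h in its absence, and the resulting MII eggs were collected. Each group had 3 independent pools of 30 eggs and 1 array per pool, with the siRNAs being commercial pools of several duplexes per target. All oocytes, controls included, were injected and cultured in the same way, no uninjected eggs were analysed here, and only RNA present at MII was read.

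Dcp2 is the enzyme that removes the 5′ cap of mRNAs, and Dcp1a is its activator. A decapped mRNA is open to 5′-to-3′ degradation. Full-grown oocytes hold a large store of maternal mRNA and transcribe little, and part of that store is degraded during maturation, when translation of Dcp1a and Dcp2 mRNA is known to begin. Labelling for these arrays starts at the poly(A) tail, so they do not separate the amount of an mRNA from the length of its tail.

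The arrays did not separate evenly by group. Over all 11593 tested probe sets, each Dcp1a array correlated with the others of its group at 0.991 to 0.992, and double arrays with one another at 0.958 to 0.989. Control replicate 1 correlated at 0.988 with a Dcp1a array, against 0.938 to 0.954 with its own group, and Dcp2 replicate 2 likewise matched a Dcp1a array best (0.985, against 0.938 to 0.963 within its group). Control replicates 2 and 3 also matched arrays of other groups best, by less (0.972 and 0.97, against at most 0.967 within their group). The median SD of a member among replicates was 0.26 in double, 0.147 in Dcp1a, 0.372 in Dcp2 and 0.349 in control eggs on the log2 scale. Of 14 oocyte marker genes on the array, 13 averaged above intensity 32 in each group, with summed intensities of 133900 to 140100 in double, 114800 to 129500 in Dcp1a, 93180 to 116100 in Dcp2 and 83260 to 116100 in control arrays. Of 24 cumulus and granulosa markers, 1 was above 32 in each siRNA group and 2 in control eggs. Their summed intensities were 1350 to 1613 in double, 2480 to 2565 in Dcp1a, 1802 to 2723 in Dcp2 and 1662 to 2268 in control arrays. Most of each sum came from 1 gene, Nr5a2. It read 1203 to 1474 in double and 2324 to 2418 in Dcp1a arrays. In Dcp2 arrays Nr5a2 read 1663 to 2580, and in control arrays 1499 to 2131. Of 22 other ovarian, stromal and blood markers 1 was above 32 in each group, with sums of 184.8 to 189.5 in double, 194.0 to 201.5 in Dcp1a, 198.7 to 210.3 in Dcp2 and 191.4 to 209.5 in control arrays. In such pools, fewer cells of a type and less RNA per cell cannot be told apart, and the part of these differences in the departures was not tested.

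The siRNA targets themselves were depleted in the arrays that their labels name. The brightest Dcp1a probe set read 518, 1233 and 622 in double eggs, 1208, 589 and 1236 in Dcp1a eggs, 7449, 10248 and 6397 in Dcp2 eggs and 12427, 5385 and 8083 in control eggs. It is a member, and its departure was -0.33 ± 0.59 (SE, limma, adjusted p = 0.96). The 2 groups with Dcp1a siRNA overlapped each other and lay below all arrays of the other 2 groups. A second member probe set of Dcp1a scattered widely among replicates (25.9 to 3376 in control eggs) and had a departure of -1.11 ± 2.35. Dcp2 was too dim to be a member: it read 5.0, 4.9 and 4.9 in double, 32.4, 49.2 and 57.1 in Dcp1a, 5.0, 4.9 and 5.0 in Dcp2 and 32.2, 30.4 and 81.8 in control eggs. Its departure was -0.07 ± 0.48 (adjusted p = 0.994), with the depleted arrays at the lower limit of the scale. At the RNA level, neither target's departure passed the test, and the 95% interval for the brightest Dcp1a probe set ran from -1.63 to 0.97.

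Most members showed no departure that passed the test, and those that did lay almost all above additivity in the fit of the values as deposited. After adjustment over all 11593 probe sets with limma, 116 members, or 1.73% of 6701, stood above additivity and 1 member, or 0.0149%, stood below it. Over all tested probe sets the shares were 3.9% upward (452) and 0.0345% downward (4), so upward calls were a smaller share of the members than of the whole table. At an unadjusted p under 0.05, 390 members were upward and 85 downward. The split was least one-sided in 2 of the settings tried: 164 upward and 40 downward without control replicate 1, and 345 upward and 174 downward with arrays weighted by quality. Smaller shifts came without the filter on low values (58 and 3), without Dcp2 replicate 3 (90 and 3) and on the linear scale (147 and 5). The median departure over all members was -0.12, below 0, and the central range from the 5th to the 95th percentile ran from -0.65 to 0.94. Departures above 0 made up 36.2% of the members (2429). The calls thus sat in the upper tail, while the median member was slightly below additivity.

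**Figure D1:**
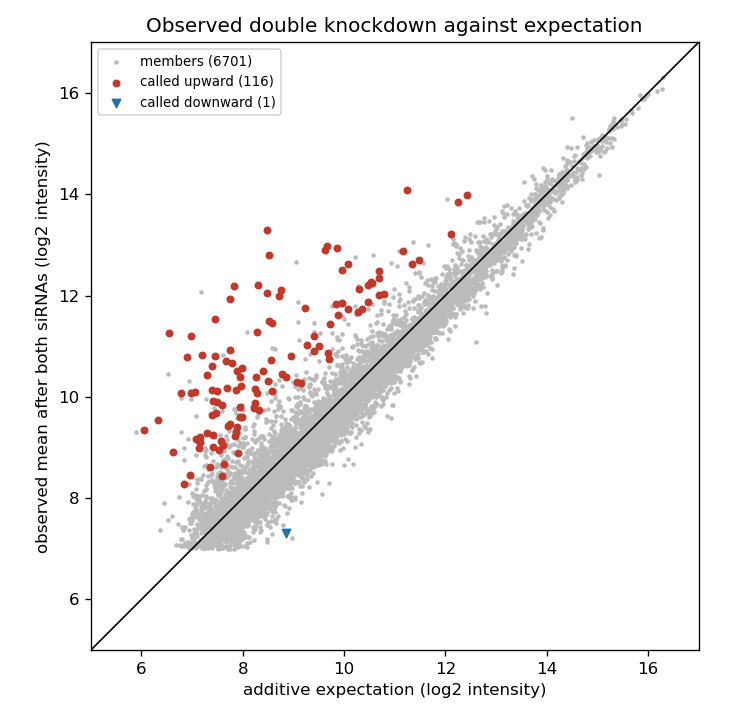
Mean log2 intensity observed in double-knockdown eggs (y axis) against the level expected from adding the Dcp1a and Dcp2 changes to the control (x axis), for 6701 member probe sets, with the line marking equality. The 116 members called upward lie above the line and the 1 called downward below it. Uncalled members lie on both sides, some as far above the line as the called ones.

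The number of upward calls changed with the array left out. It was 60, 51 and 47 without Dcp1a replicate 1, 2 or 3, and 52 and 53 without double replicate 1 or 2. It was 75 without Dcp2 replicate 2, and between 85 and 164 without any other single array. The departure of all 116 was above 0 in each of these 12 fits, and 43 of them, covering 32 genes with 1 symbol, kept their call in every one.

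The simple differences show where this departure lies. Against control eggs, the double knockdown had 245 members higher (3.66%) and 114 lower by limma. Against Dcp1a eggs, 343 were higher (5.12%) and 214 lower, and against Dcp2 eggs 188 were higher (2.81%) and 16 lower. The Dcp1a knockdown had 0 members higher and 2 lower than control (0.0298% in either direction), with 178 and 112 at an unadjusted p under 0.05. The Dcp2 knockdown had 0 in either direction (0%), with 212 higher and 451 lower at an unadjusted p under 0.05. These comparisons share arrays with the departure and with one another, so their counts are given side by side only.

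Among the 116 members called upward, the double eggs carried the highest mean of the 4 groups in 114, and all 3 double arrays were above the other 9 arrays in 100. Of all members, 377 (5.63%) had all 3 double arrays above the other 9. The median difference of the 116 was 1.30 for double minus control, 1.76 for double minus Dcp1a and 1.49 for double minus Dcp2. For the single knockdowns it was -0.53 for Dcp1a minus control and -0.21 for Dcp2 minus control. Over all members the same 5 medians were -0.05, -0.16, 0.04, 0.12 and -0.10. Since the 116 were picked on a sum of these differences, their medians describe the composition of the departure and carry no test.

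The single differences of the 116 were mostly below 0, partly through 1 control array. In 112 of the 116 the Dcp1a mean lay below the control mean (96.6%, against 34.5% of all members), and in 81 the Dcp2 mean did (69.8%, against 59.4%). In 77 both did (66.4%, against 22.3%). The double mean was above the control mean in 114. With control replicate 3 left out, the Dcp1a mean was below the control mean in 98 (84.5%, against 36% of all members) and the Dcp2 mean in 56 (48.3%, against 60.3%), and both were in 48 (41.4%, against 21.4%). The median Dcp2 minus control difference of the 116 was then 0.03, that of Dcp1a minus control -0.28 and that of double minus control 1.53. A lower level after Dcp2 siRNA alone thus rested on that array, while the higher level after both siRNAs did not. The median departure of 1.91 (range 0.85 to 4.82) corresponded to 3.75 times the expected intensity (range 1.8 to 28.3). Of the 116, 88 were also called higher in double than in control eggs, 115 higher than in Dcp1a eggs and 105 higher than in Dcp2 eggs. Only 1 was called lower after Dcp1a siRNA than in control, and 0 after Dcp2 siRNA.

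**Figure D2:**
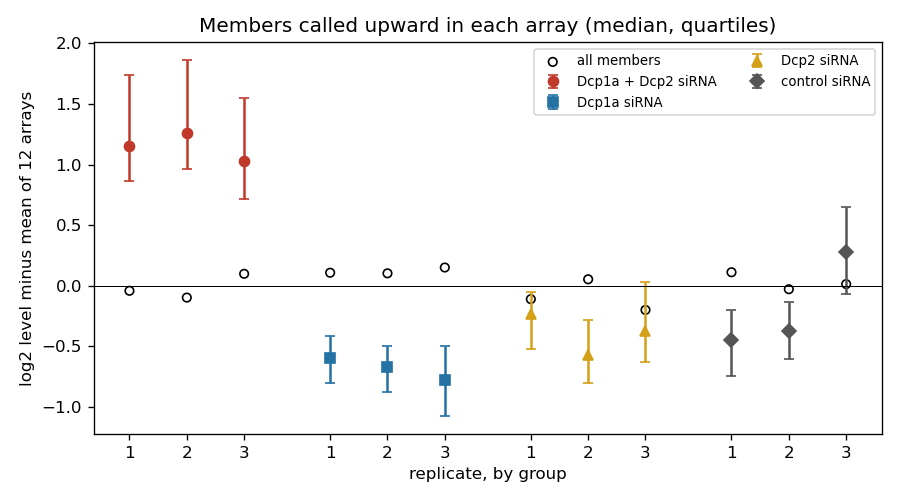
Median log2 level of the 116 upward members in each of the 12 arrays, relative to each member's mean over the arrays, with bars from the lower to the upper quartile and open circles for the median of all members. The double arrays sit at 1.03 to 1.26, the Dcp1a arrays at -0.77 to -0.60, the Dcp2 arrays at -0.57 to -0.23 and the control arrays at -0.45, -0.37 and 0.28.

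One control array moved with this result. Relative to its mean over all 12 arrays, the median called member stood at 1.15, 1.26 and 1.03 in the double arrays and at -0.60, -0.67 and -0.77 in the Dcp1a arrays. It stood at -0.23, -0.57 and -0.37 in the Dcp2 arrays and at -0.45, -0.37 and 0.28 in control replicates 1, 2 and 3. Control replicate 3 was the highest of the 9 arrays other than the double arrays in 73 of the 116 (62.9%, against 16.6% of all members). A high control value lowers both single differences and raises the expected loss, and so enters the departure with a plus sign. Without that array, 93 members were called upward, 84 of them among the 116, and the median departure of the 116 was 1.72.

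**Figure D3:**
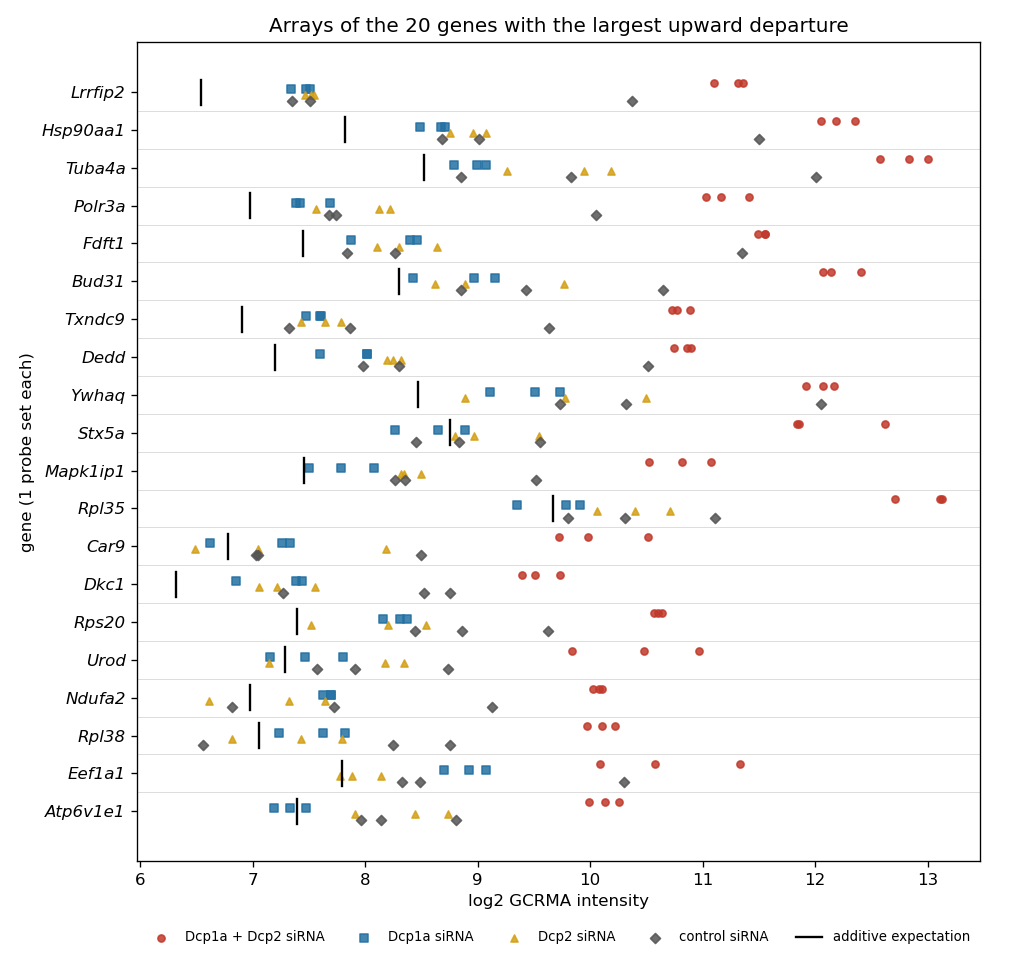
Log2 intensity in each array for the 20 named genes with the largest upward departure, by siRNA group, with a bar at the additive expectation. All double arrays lie to the right of the bar, and the rightmost control point is replicate 3 in every gene.

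The 20 named genes with the largest upward departure ranged from 4.71 to 2.73. They have no single function in common, and cover chaperones, the cytoskeleton, RNA polymerase, lipid and heme synthesis, splicing, vesicle fusion and translation. A called member with a departure of 4.82 fell outside the naming rule. In all 20, control replicate 3 was the highest of the 9 arrays without both siRNAs. Without that array the departures of the 20 were 2.24 to 3.73, and all 20 were called.

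Lrrfip2, which encodes a leucine-rich-repeat partner of Flightless, had the largest departure, 4.71 ± 0.86 (limma, adjusted p = 0.012). It read 2634, 2201 and 2545 in double eggs, 183, 178 and 162 in Dcp1a eggs, 187, 184 and 177 in Dcp2 eggs and 163, 182 and 1327 in control eggs. The double arrays were above all others, and the remaining 9 were close together except for control replicate 3. Observed intensity was 26.3 times that expected from additivity. The other probe set of Lrrfip2, too dim to be a member, had a departure of 0.90 ± 0.25 and was not called (limma, adjusted p = 0.0789). Without control replicate 3 the departure of the called probe set was 3.73.

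Hsp90aa1, the inducible form of the cytosolic chaperone HSP90, read 4670.5, 4244 and 5239 in double eggs, 419, 359 and 409 in Dcp1a eggs, 498, 539 and 431 in Dcp2 eggs and 515, 412 and 2894 in control eggs on one of its probe sets. The departure there was 4.38 ± 0.79 (adjusted p = 0.0116). Its double arrays did not overlap with the rest.

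Tuba4a, an alpha-tubulin, read 7286, 8209.9 and 6117 in double eggs, 538, 509 and 444 in Dcp1a eggs, 1163, 616 and 989 in Dcp2 eggs and 462, 913 and 4129 in control eggs. Its departure was 4.28 ± 0.86 (adjusted p = 0.0186). No other array reached the double arrays, and control replicate 3 came nearest. A second probe set of Tuba4a, too dim to be a member, had a departure of 4.60.

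Polr3a, the largest subunit of RNA polymerase III, read 2096, 2723 and 2295 in double eggs, 207, 167 and 171 in Dcp1a eggs, 279.8, 189.6 and 299 in Dcp2 eggs and 214, 205 and 1065 in control eggs, a departure of 4.22 ± 0.73 (adjusted p = 0.00928). The double arrays were again alone at the top. Fdft1, squalene synthase, which commits isoprenoids to sterol synthesis, read 3001, 3008 and 2889.9 in double eggs, 352, 337 and 235 in Dcp1a eggs, 398, 316 and 276 in Dcp2 eggs and 229, 307 and 2609 in control eggs. Here control replicate 3 came close to the double arrays, and the departure of 4.09 ± 0.98 (adjusted p = 0.0436) lost its call when any 1 of the 9 arrays outside the control group was left out.

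Bud31, a spliceosome-associated factor, read 4505, 5443 and 4306 in double eggs, 502, 572 and 345 in Dcp1a eggs, 871, 395 and 472 in Dcp2 eggs and 461, 691 and 1602 in control eggs. Its departure was 3.90 ± 0.61 (adjusted p = 0.00553). The 9 other arrays of Bud31 spread widely yet stayed below the double arrays. Txndc9, a thioredoxin-fold regulator of the CCT chaperonin, read 1694, 1744 and 1896 in double eggs, 195, 178 and 194 in Dcp1a eggs, 200.0, 221 and 172 in Dcp2 eggs and 233, 159.8 and 796 in control eggs, a departure of 3.89 ± 0.63 (adjusted p = 0.00722). The double arrays stood apart from a tight set of low arrays, with control replicate 3 between the sets. On its other probe set, also a member, Txndc9 had a departure of 1.13 ± 0.34 that was not called (limma, adjusted p = 0.118).

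Dedd, a death-effector-domain protein, read 1716, 1864 and 1902 in double eggs, 259.8, 258 and 194 in Dcp1a eggs, 319.7, 293 and 303 in Dcp2 eggs and 254, 316 and 1460.0 in control eggs. Its departure was 3.64 ± 0.72 (adjusted p = 0.0164) and lost its call without Dcp1a replicate 3. Control replicate 3 of Dedd was nearer to the double arrays than to the other controls. Another member probe set of Dedd was not called (0.80 ± 0.27, limma, adjusted p = 0.2). A further one, too dim to be a member, was called at 1.68. Ywhaq, the theta form of the 14-3-3 phosphoprotein-binding family, read 3871, 4604 and 4313 in double eggs, 850.0, 552 and 729 in Dcp1a eggs, 1443, 879.9 and 474 in Dcp2 eggs and 850.0, 1278 and 4239 in control eggs. It is the one gene of these 10 whose groups overlapped, since control replicate 3 exceeded double replicate 1. Its departure of 3.58 ± 0.76 (adjusted p = 0.0237) kept its call in 4 of the 12 fits with an array left out, and the difference of double from control eggs did not pass the test (adjusted p = 0.14).

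Stx5a, the syntaxin of transport between endoplasmic reticulum and Golgi, differed from these in its controls. It read 3716, 6294 and 3662 in double eggs, 472, 308 and 401 in Dcp1a eggs, 501, 445 and 748 in Dcp2 eggs and 456, 351 and 753 in control eggs. The single-knockdown and control arrays all overlapped, and the double arrays were far above them. Its departure of 3.35 ± 0.47 (adjusted p = 0.00323) was nearly the same as its double minus control difference, 3.16. Other probe sets of Fdft1, Bud31 and Stx5a, too dim to be members, were also called upward, at 4.31, 4.21 and 2.85.

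The next 10 genes had departures of 3.35 to 2.73. They were Mapk1ip1 (3.35 ± 0.44), Rpl35 of the large ribosomal subunit (3.31 ± 0.45), the carbonic anhydrase Car9 (3.29 ± 0.68), the pseudouridine synthase Dkc1 (3.23 ± 0.49) and Rps20 of the small ribosomal subunit (3.21 ± 0.44). Then came Urod of heme synthesis (3.14 ± 0.57), Ndufa2 of respiratory complex I (3.10 ± 0.66), Rpl38 (3.04 ± 0.66), the elongation factor Eef1a1 (2.87 ± 0.66) and Atp6v1e1 of the vacuolar proton pump (2.73 ± 0.37). Their adjusted p values lay between 0.00216 and 0.0354. The double arrays were above the other 9 in all of these but Eef1a1, where control replicate 3 read 1263 and double replicate 2 read 1089.

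Of the 20 genes, 12 kept their call whichever array was left out. The other 8 were Tuba4a (8 of 12 fits), Dedd (11), Car9 (7), Ndufa2 (5), Ywhaq and Eef1a1 (4 each) and Fdft1 and Rpl38 (3 each). The arrays whose removal ended a call were those of the 3 knockdown groups, plus control replicate 2 for Rpl38. Over all 12 fits with an array left out, the departures of the 20 genes stayed between 2.24 and 5.25.

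The same gene did not always give the same answer on its other probe sets. The upward calls covered 85 genes, and 45 of these had 1 member probe set. Of the 40 with several, 5 had all member probe sets called and 35 had some that were not. The 49 uncalled member probe sets of these genes had a median departure of 0.08 (range -1.29 to 2.22), with 26 above 0 and 23 at or below it, beside a median of 1.84 for the called ones. In 21 genes the uncalled set included the gene's brightest probe set, whose median departure was -0.08 at a mean of log2 11.28, while the called probe set averaged log2 8.65.

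Hsp90aa1 is the clearest case. Its called probe set averaged log2 9.87 over the 12 arrays, whereas 2 brighter ones, at 15.17 and 15.04, had departures of 0.03 ± 0.29 and -0.35 ± 0.38. Dkc1 was called at 3.23 on a probe set averaging 8.06, beside -0.12 ± 0.37 and -0.24 ± 0.35 on brighter ones. For G3bp2, a stress-granule RNA-binding protein, the values were 2.29 on the called and -0.08 on the brightest probe set. For the condensin subunit Smc4 they were 1.55 and -0.03, and for the initiation factor subunit Eif3e 1.69 and 0.08. Brighter probe sets of these genes thus showed levels close to additive. In Ywhaq 4 of 5 member probe sets were called, the brightest included, and in Rps20 both were (3.21 and 2.98). In Rpl35 4 of 5 were called, and the uncalled one was the brightest (1.28 ± 0.53, adjusted p = 0.348).

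**Figure D4:**
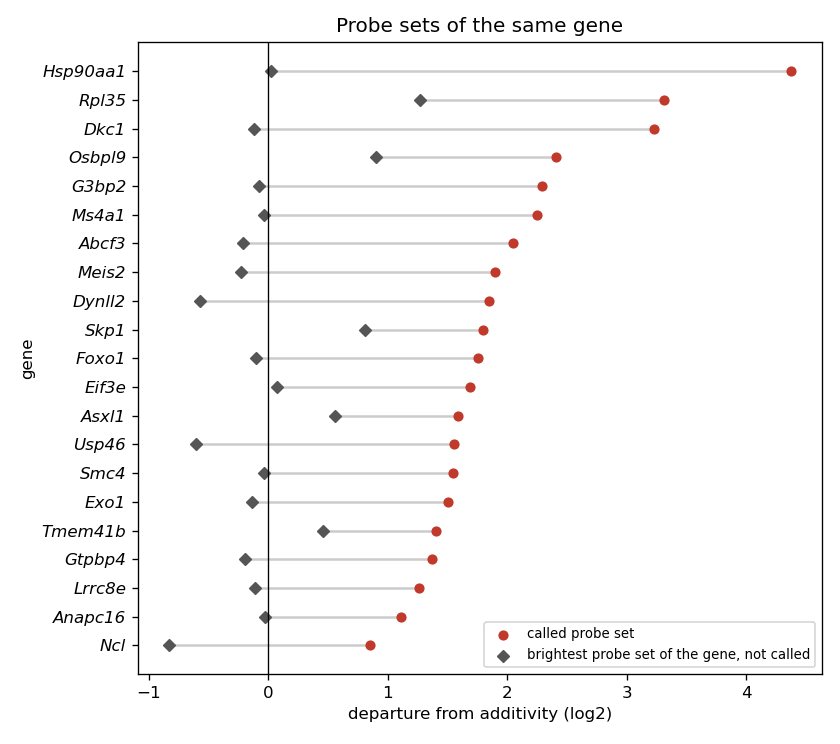
Departure from additivity (x axis, log2) of the called probe set and of the brightest probe set for the 21 genes whose brightest probe set was not called. Called probe sets lie between 0.85 and 4.38, and the brightest ones lie lower in every gene, with 7 of 21 above 0.

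Calls also differed by the kind of probe set. Names ending in _x_at mark sets in which some probes match other transcripts, _s_at sets that match several transcripts and _a_at sets for variants of 1 gene. By these endings, 41 of 650 _x_at members were called upward (6.31%), 19 of 641 _s_at members (2.96%), 27 of 1145 _a_at members (2.36%) and 29 of 4265 plain _at members (0.68%). The _x_at sets made up 9.7% of the members and 35.3% of the calls. The median departure was 0.06 in _x_at, -0.05 in _s_at, -0.06 in _a_at and -0.16 in plain _at members. What part cross-matching had in the departures was not tested, and values of ribosomal protein genes and others with close copies are uncertain for that reason.

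Upward calls were rarest among the brightest members. They made up 2.62% of members with the lowest group mean between log2 7 and 8 (43 of 1643), 2.11% between 8 and 9, 1.56% between 9 and 10, 1.8% between 10 and 11, 0.61% between 11 and 12 and 0.368% from 12 up (3 of 815). Among the 4892 tested probe sets below the member level, 6.87% were called (336). The called members nearest above the threshold were a Ywhaq probe set (lowest group mean 7.03, departure 3.30) and Eif4e2, a cap-binding protein (7.04 and 1.96). The called probe sets nearest below it were an unnamed one (6.95 and 4.52) and Rpl10a of the large ribosomal subunit (6.92 and 5.31). Choosing for each of 6998 tested genes the probe set with the highest mean, 260 genes (3.72%) were called upward.

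Genes of the translation apparatus contributed an uneven part. Of 26 cytosolic ribosomal protein genes among the members, 6 were called upward (23.1%, against 1.94% of all 4391 member genes), 0 downward, and the median departure of their 52 probe sets was 1.06, against -0.12 for all members. They were Rps20, Rpl35, Rpl38, Rps15 (2.45 ± 0.44, adjusted p = 0.0115), Rps7 (1.72 ± 0.32, 0.0121) and Rps18, which is outside the naming rule, on 1 of its 2 member probe sets. Departures above 0 were found for 41 of the 52 probe sets, with a range of -0.88 to 3.31. Of 33 translation factor genes 3 were called (9.09%), namely Eif4e2 (1.96 ± 0.34), Eef1a1 and Eif3e, and their list's median was 0.02. Of 23 ribosome biogenesis genes 2 were called, Dkc1 and nucleolin (Ncl, 0.85 ± 0.21), and the median was -0.16.

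Start sites were examined because decapping acts on the 5′ end of an mRNA and the ribosomal protein list had the highest median among the members. The 2 shown are the 2 of 5 called ribosomal protein genes in the table that hold the motif searched for. Their mRNAs are known to begin with a run of pyrimidines. The 60 bases run from 30 before to 30 from the annotated start, from RefSeq (GRCm38.p6), and capitals mark CTTTC or CTTTT on the transcribed strand within 10 bases of the start.
Rpl35, chr2:39005102-39005161, minus strand: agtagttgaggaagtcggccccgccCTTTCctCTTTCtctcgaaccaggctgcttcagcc
Rpl38, chr11:114668550-114668609, plus strand: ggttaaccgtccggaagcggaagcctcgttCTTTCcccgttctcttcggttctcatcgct
Of 66 called genes with a start in the table, 4 held either motif (6.06%), beside 5.09% of 3616 member genes and 5.47% of all 27025 genes. Among ribosomal protein genes it was 2 of 5 called ones and 5 of 23 members (21.7%), and outside them 2 of 61 called genes (3.28%). The motif was thus about as frequent at the starts of called genes as at starts in general. Runs of pyrimidines without CTTTC or CTTTT were not counted, so the frequency of such runs was not tested.

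Mitochondrial genes gave smaller list medians among the members. This order did not hold over all tested genes, dim ones included, each by its brightest probe set. There the median was 1.45 for respiratory complex I (12 of 30 called upward) and 1.28 for cytosolic ribosomal proteins (13 of 37). For all 6998 genes it was -0.08 (260 called upward). Of 16 respiratory complex I genes among the members, 3 were called upward (18.8%): Ndufa2, Ndufb11 (1.71 ± 0.37, adjusted p = 0.0264) and Ndufv2 (1.62 ± 0.38, 0.0395), with a list median of 0.43. Of 22 genes of complexes II to V, 1 was called, Atp5j2 of ATP synthase (2.50 ± 0.36, 0.00393), and the median was 0.28. Mrpl48 (1.52 ± 0.34) was the 1 call among 36 mitochondrial ribosomal proteins, whose median was 0.17. Mitochondrial import genes had 0 calls of 12 and a median of 0.01. In the citrate cycle list, 1 of 10 was called, Pdk1, the kinase that turns pyruvate dehydrogenase off (1.73 ± 0.30, adjusted p = 0.01).

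Pdk1 and Sumf1 were the 2 of the 116 in which the double group was not the highest. The Pdk1 means were 11.61 in double, 10.36 in Dcp1a, 11.59 in Dcp2 and 12.06 in control eggs. It fell by 1.70 after Dcp1a siRNA relative to control (limma, adjusted p = 0.0291), the 1 call among the 116 for that difference. After both siRNAs Pdk1 was 0.03 from its level in Dcp2 eggs and -0.44 from control, and neither difference passed the test (limma, adjusted p = 0.983 and 0.2). Sumf1, which activates sulfatases, had means of 10.75 in double, 9.95 in Dcp1a, 10.55 in Dcp2 and 10.80 in control eggs.

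Among protein quality-control genes, the proteasome had 3 of 26 member genes called (11.5%): Psmd6 (1.72 ± 0.31), Psmb4 (2.63 ± 0.57) and Psmc4 (1.38 ± 0.30), against a list median of -0.04. Chaperones had 3 of 24 (12.5%), Hsp90aa1, Cct2 of the chaperonin (2.27 ± 0.48) and the constitutive HSP70 Hspa8 (1.56 ± 0.37), with a median of 0.11. Glycolysis had 1 of 6, Aldoa (1.44 ± 0.33), and vesicle traffic 1 of 32, Stx5a.

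Apart from the probe sets of the 20 genes above, the naming rule gave 17 called probe sets in these lists, 1 of them a second one of Rps20. Of these, 7 kept their call whichever array was left out: Rps15, Rps7, Eif4e2, Atp5j2, Pdk1, Psmd6 and the second Rps20 probe set. The others kept it in 1 to 5 of the 12 fits, and Rps18 kept it in 2. Among these, Eif3e, Mrpl48, Ndufb11, Psmc4, Hspa8, Ncl and Aldoa lost it without control replicate 3 and also without several other arrays. Ndufv2, Psmb4 and Cct2 lost it without some arrays of the Dcp1a, Dcp2 and double groups, and kept it without any 1 control array.

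The decay machinery and the egg's own programme gave no called departure among the members. Of 12 genes of the decapping and 5′-to-3′ decay list 0 were called, with a median of -0.23 and 2 of 17 probe sets above 0, beside 36.2% of all members. This list includes the siRNA target Dcp1a, whose widely scattered second member probe set gave the lowest value, -1.11. The smallest p values there belonged to the helicase Ddx6 (-0.82 ± 0.34, adjusted p = 0.341) and Lsm1 (-0.48 ± 0.27, 0.616). Deadenylation genes had 0 of 18 called and a median of -0.22. Cnot2, of the deadenylase scaffold, stood at 0.82 ± 0.27 (0.172), and Tob2 at 1.69 ± 0.69 (0.329). Exosome and nonsense-mediated decay genes had 0 of 13, with the helicase Upf1 at -0.89 ± 0.32 (0.223).

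Genes that store or translate maternal mRNA had 0 of 22 called, and Caprin1 stood at 0.66 ± 0.25 (adjusted p = 0.271). Egg-coat, growth-phase and maternal-effect genes had 0 of 51. Among them, Spin1 was at 1.22 ± 0.34 (0.0837), and Zp2, a zona pellucida protein, at 1.78 ± 0.59 (0.18). Meiotic cell-cycle genes had 0 of 45, with Ndc80, the kinetochore protein, at -0.99 ± 0.40 (0.335) and the kinase Aurkc at 0.78 ± 0.30 (0.282). Splicing genes (0 of 32), oocyte markers (0 of 13) and stress genes (0 of 8) had none either. The 1 member gene among the cumulus and granulosa markers was Nr5a2, an orphan nuclear receptor. Its brightest probe set was at -1.01 ± 0.29 (0.0886), with all 3 double arrays below the other 9, and its other member probe set was at -0.17. No list held a gene called downward. List medians near 0 had no settled sign: 12 of the 21, with medians of -0.17 to 0.11, changed sign in at least 1 setting.

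The 1 downward member was Gm10512, outside the naming rule and named after its values were seen. Its means were 7.30 in double, 8.36 in Dcp1a, 8.64 in Dcp2 and 8.15 in control eggs on the log2 scale, a departure of -1.55 ± 0.38 (limma, adjusted p = 0.049). Its role is not given in the files. The count of 1 depended on single arrays. It was 40 without control replicate 1, 3 without Dcp2 replicate 3, 1 without control replicate 3 and 0 without any other array.

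The count of upward members also moved with the processing. Centring each array on its median left 73 calls, dropping the filter on low values left 58 and keeping it at 6 arrays left 95. Weighting arrays by quality gave 345, including all 116. On the linear intensity scale, where additivity means that intensities and not folds add, 147 members were called and 99 of them were among the 116.

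**Figure D5:**
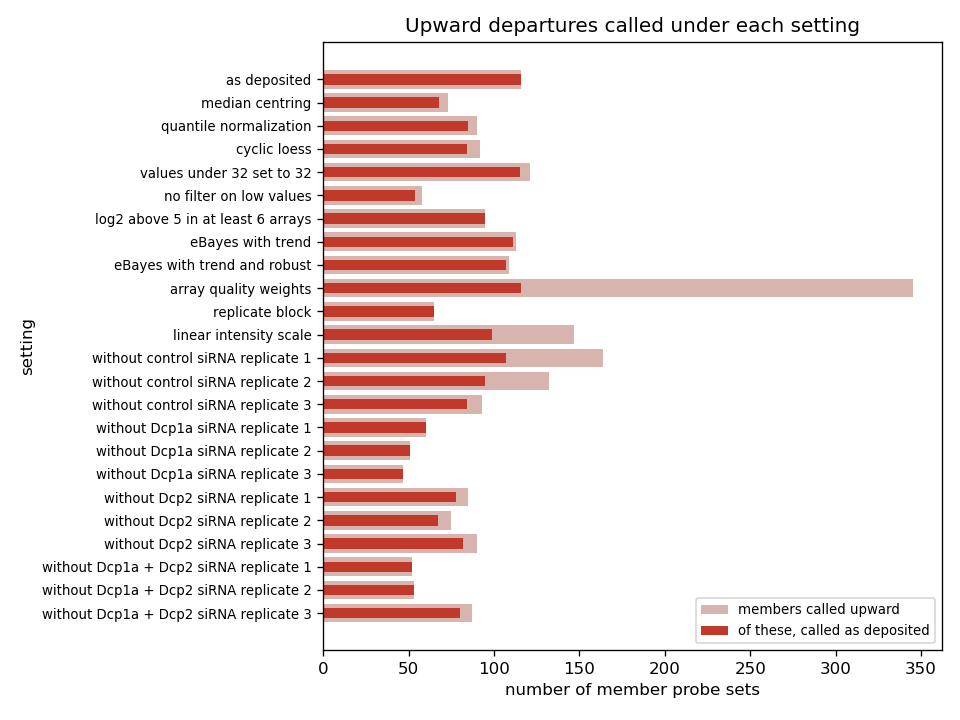
Number of member probe sets called upward (x axis) under each setting or without each array, with the darker bar for those among the 116 called as deposited. Counts run from 47 without Dcp1a replicate 3 to 345 with array quality weights.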

How the data were processed

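Per the labels' protocols, RNA of each pool of 30 eggs was amplified, biotin-labelled and hybridised to Affymetrix mouse arrays. Per the submitters' processing notes, the authors computed the deposited intensity values with GCRMA, a method of background correction, normalization and probe summary. They are on a linear scale. No source used here names the GCRMA version. The method draws weak signals to a floor (55.6% of values were at or under 5), and normalization makes each value relative to its array, so the total mRNA of an egg is not visible. The number of arrays limits precision.

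From these values log2 was taken, 64 control probe sets were left out of 45101, and the 11593 of the remaining 45037 with log2 above 5 in at least 3 arrays were fitted in R 4.3.3 with limma 3.58.1 (lmFit, then eBayes with no trend, on means of 4 groups, with 8 residual and 2.97 prior degrees of freedom). All tests were two-sided. The Benjamini-Hochberg adjustment ran over all 11593 with a threshold of 0.05, and errors are standard errors of the fit. The procedure was tested on simulated data. Genes were named from the platform annotation, where 34741 Entrez numbers matched RefSeq and 0 symbols changed.

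The members and the gene lists were chosen with earlier results of these data known. The 20 largest upward departures with 1 symbol, 1 probe set a gene and no clone-style name were named, as were up to 10 downward ones, up to 4 called genes per list or the 2 with the smallest p, and the probe sets nearest the member threshold. Replicate numbers showed no clear pairing of the samples. Same-numbered samples of different groups correlated in their deviations at -0.759 to 0.452, with 9 of 18 pairs over 0.1. Samples with other numbers correlated at -0.594 to 0.782, with 15 of 36 pairs over 0.1. Alternatives covered normalization, floor, filter, variance, scale, member threshold, a replicate block and leaving out each array.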

Additional observations from a re-analysis of the deposited data

Results flagged for a closer look

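The effect of Dcp1a siRNA differed by whether Dcp2 siRNA was present for 116 members upward and 1 downward, by limma's test of the departure itself. By size, the named ones were Lrrfip2 (4.71), Hsp90aa1 (4.38), Tuba4a (4.28), Polr3a (4.22), Fdft1 (4.09), Bud31 (3.90), Txndc9 (3.89), Dedd (3.64), Ywhaq (3.58), Stx5a (3.35) and Mapk1ip1 (3.35). Rpl35 (3.31), Car9 (3.29), Dkc1 (3.23), Rps20 (3.21), Urod (3.14), Ndufa2 (3.10), Rpl38 (3.04), Eef1a1 (2.87) and Atp6v1e1 (2.73) followed, and Gm10512 (-1.55) was the downward one. Control replicate 3 was the highest of the 9 arrays without both siRNAs in all 20 upward genes. Groups of 3 arrays are too small for a test of single outlying arrays.

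Outside the probe sets tested, 2 of the array's 3 Gapdh control sets read higher in each double array than in each control array. The 3′ Gapdh set averaged log2 12.01 in double, 10.93 in Dcp1a, 11.50 in Dcp2 and 10.72 in control eggs. The middle set averaged 7.81 in double, 6.68 in Dcp1a, 7.08 in Dcp2 and 6.24 in control eggs. The 5′ set, at 4.69 in double, 3.45 in Dcp1a, 3.74 in Dcp2 and 3.60 in control eggs, overlapped between double and control arrays. The departures of the 3 sets were 0.31, 0.29 and 1.10, with no test run. The spiked BioB 3′ control averaged 9.01 in double, 8.89 in Dcp1a, 10.02 in Dcp2 and 9.04 in control eggs, with overlapping ranges. Its departure was -0.85. The other BioB, BioC, BioDn and Cre spike sets also had departures below 0, the smallest in size being -0.21. Each of these sets averaged highest in Dcp2 eggs, and no test was run on them.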

How the results depend on the processing

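The departure of all 116 upward members stayed above 0 in every setting, and no called departure reversed its sign. The medians of 12 of 21 gene lists did change sign in at least 1 setting. Among the normalizations, mitochondrial import and translation factors were at -0.09 and -0.07 with median centring. Counts moved more. Upward members numbered 73 with median centring, 58 without the filter on low values, 345 with array quality weights (whose estimation stopped before convergence), 73 with a member level of log2 8 and 189 with log2 6, against 116. Leaving out each array gave 47 to 164 upward members, 0 to 40 downward members, 251 to 546 upward and 1 to 80 downward probe sets of all tested. Upward probe sets of all tested, 452 as deposited, numbered 257 with the filter at 6 arrays and 1052 with array weights. Downward members numbered 3 without the filter, 174 with array weights and 5 on the linear scale. They were 0 with quantile normalization, cyclic loess, the filter at 6 arrays, trended variance with or without robust fitting, and a member level of log2 8. Downward probe sets of all tested were 7 with quantile normalization, 8 with cyclic loess, 10 without the filter, 2 with the filter at 6 arrays, 2 with trended and robust variance, 333 with array weights and 8 on the linear scale. The smaller counts without an array come with fewer samples; the cause of the other moves was not tested. The replicate block was fitted although the numbers showed no clear pairing of the samples. It left 65 upward members, all among the 116, 0 downward members, and 330 upward and 1 downward probe sets of all tested. Among the single probe sets followed through the settings, the call was lost in 208 and gained in 22 of the combinations run. Signal over background limits dim members, which lie nearest the floor.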
